A study of Mus musculus with 22 samples.

Results

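Mechanosensitive channels open when the membrane around them is stretched or pushed and let ions into or out of the cell. The genes described here were Piezo1 and Piezo2, Trpv2, Trpv4 and Trpm7, Tmem63a, Tmem63b and Tmem63c, Pkd2, and Kcnk2. They were chosen by symbol, and all 10 were present among the 29367 genes of the deposited count table. Astrocytes of the optic nerve head (ONH) enclose bundles of ganglion cell axons where these leave the eye and are exposed to strain when intraocular pressure (IOP) changes, which is why stretch-gated channels are of interest in glaucoma.

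The libraries hold polyadenylated RNA bound to HA-tagged ribosomes, pulled down with an antibody to HA from the ONH or from the optic nerve proper (ONP), which is the myelinated nerve behind it. All mice carried the ribosomal protein allele Rpl22tm1.1Psam, whose tag appears after Cre recombination, and the transgene GFAP-Cre 73.12Mvs, which drives Cre from a Gfap promoter. The tag therefore marks cells in which that promoter is or has been active, and the genotype is labelled WT in every library. The mice were 3 to 4 months old when the experiment began, and microbeads were injected into 1 eye to raise IOP. Tissue was taken 7 or 30 days later, and each library pooled 4 mice, 2 male and 2 female. The study's methods state that the same mice gave both regions, with ONP tissue cut to the length of the ONH, so ONH and ONP libraries are not independent of each other, but the sources used here do not say which libraries share mice. There were 4 ONH and 4 ONP libraries at day 7 and 7 of each at day 30, 22 in all. Every library came from microbead-injected eyes, and uninjected mice were not analysed here, so the comparisons are between regions and between days after injection. The 7 day libraries are named below by the numbers their columns carry (1, 3, 5 and 6 for the ONH, 1, 2, 5 and 6 for the ONP).

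Library totals ran from 16292489 to 33307092 counts, so that 3 counts equal 0.0901 to 0.184 CPM (counts scaled to a library of 1000000). All levels below are CPM after trimmed mean of M-values (TMM) scaling over the 22 libraries, unless given per kilobase of exon. The 9 astrocyte markers (among them Gfap, Aqp4 and Sox9) summed to between 14507 and 33473 CPM per library, and none of them was at 0. Markers of other cells were present as well. The 5 oligodendrocyte markers (Mbp, Mog, Mag, Mobp and Cnp) summed to 9898 to 30522 CPM in ONH and 16854 to 69537 CPM in ONP libraries, and no library lacked any of them. The 7 microglial and macrophage markers summed to 140 to 3013 CPM. Markers of photoreceptors and neurons reached 3745 CPM in ONH day 7 library 6, against at most 100 CPM in any ONP library. The cells of origin of these transcripts were not tested. In pooled tissue of this kind, fewer cells of a type and less RNA per cell cannot be told apart.

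The 10 genes fall into roles. PIEZO1 and PIEZO2 are large trimeric cation channels opened directly by membrane tension. TRPV2, TRPV4 and TRPM7 are calcium-permeable TRP channels, of which TRPV4 also answers to cell swelling and TRPM7 carries a kinase domain. TMEM63A, TMEM63B and TMEM63C belong to the OSCA/TMEM63 family, relatives of plant osmosensing channels. Variants of TMEM63A in people cause a hypomyelinating leukodystrophy. PKD2 (polycystin-2) is a cation channel of primary cilia and the endoplasmic reticulum that pairs with polycystin-1, and Kcnk2 encodes TREK-1, a potassium channel opened by stretch.

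Tmem63a and Tmem63b had the highest levels per kilobase of exon of the 10 in every group and were the members called between the regions. Their upstream sequences are shown for that reason. Each is the 250 bases before the RefSeq start of the gene, on the coding strand and in build GRCm38.p6, with each GC box (GGGCGG on either strand) in capitals. The Tmem63a window is chr1:180942268-180942517 on the plus strand and the Tmem63b window is chr17:45686219-45686468 on the minus strand.
Tmem63a: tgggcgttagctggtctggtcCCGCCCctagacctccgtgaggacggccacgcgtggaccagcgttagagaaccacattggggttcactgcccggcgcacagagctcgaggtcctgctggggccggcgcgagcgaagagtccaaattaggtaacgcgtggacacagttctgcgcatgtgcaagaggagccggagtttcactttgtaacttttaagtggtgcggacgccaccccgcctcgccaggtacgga
Tmem63b: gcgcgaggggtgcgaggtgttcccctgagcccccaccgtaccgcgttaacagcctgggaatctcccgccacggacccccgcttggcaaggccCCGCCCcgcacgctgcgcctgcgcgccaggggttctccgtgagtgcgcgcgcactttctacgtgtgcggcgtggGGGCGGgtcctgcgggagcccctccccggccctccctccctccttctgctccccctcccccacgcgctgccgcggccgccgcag
The Tmem63a window held 1 GC box, 1 CCAAT box (CCAAT on either strand), 23 CpG dinucleotides and 62.0% G+C. The Tmem63b window held 2 GC boxes, no CCAAT box, 31 CpG dinucleotides and 75.6% G+C. Neither had a TATA box (TATAAA) or an E-box (CACGTG). Across all 32851 windows of this length, 32.7% had a GC box, 33.8% a CCAAT box, 12.4% a TATA box and 6.02% an E-box, and the median window had 6 CpG and 52.4% G+C. GENCODE begins both genes further upstream than RefSeq, so the windows lie partly or wholly inside its gene spans, chr1:180942344-180975112 for Tmem63a and chr17:45660171-45686905 for Tmem63b. A match to these letters is a description and not evidence of binding.

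Scaled per kilobase of exon, the 10 genes spread over several orders of magnitude. Tmem63a led with means of 29.1 ± 13.5 CPM per kb in the ONH at day 7 (SD, n = 4), 20.3 ± 4.98 in the ONH at day 30 (n = 7), 109 ± 16.1 in the ONP at day 7 (n = 4) and 54.5 ± 22.1 in the ONP at day 30 (n = 7). It alone made up 54.9%, 53.8%, 78.2% and 70.7% of the summed length-scaled level of the 10 genes in these groups. Tmem63b followed at 6.44 to 15.6 CPM per kb, then Pkd2 at 4.13 to 4.58 and Trpv2 at 2.23 to 3.83. Trpm7, Kcnk2 and Trpv4 lay between 0.364 and 2.58, where the ranges of neighbours overlapped and their order changed from group to group; Trpv4 was below Piezo2 in the ONP at day 30. Both Piezo genes were low, Piezo2 at 0.508 to 0.84 and Piezo1 at 0.183 to 0.533 CPM per kb. Tmem63c was last in all 4 groups, at 0.00343 to 0.0779 CPM per kb.

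**Figure D1:**
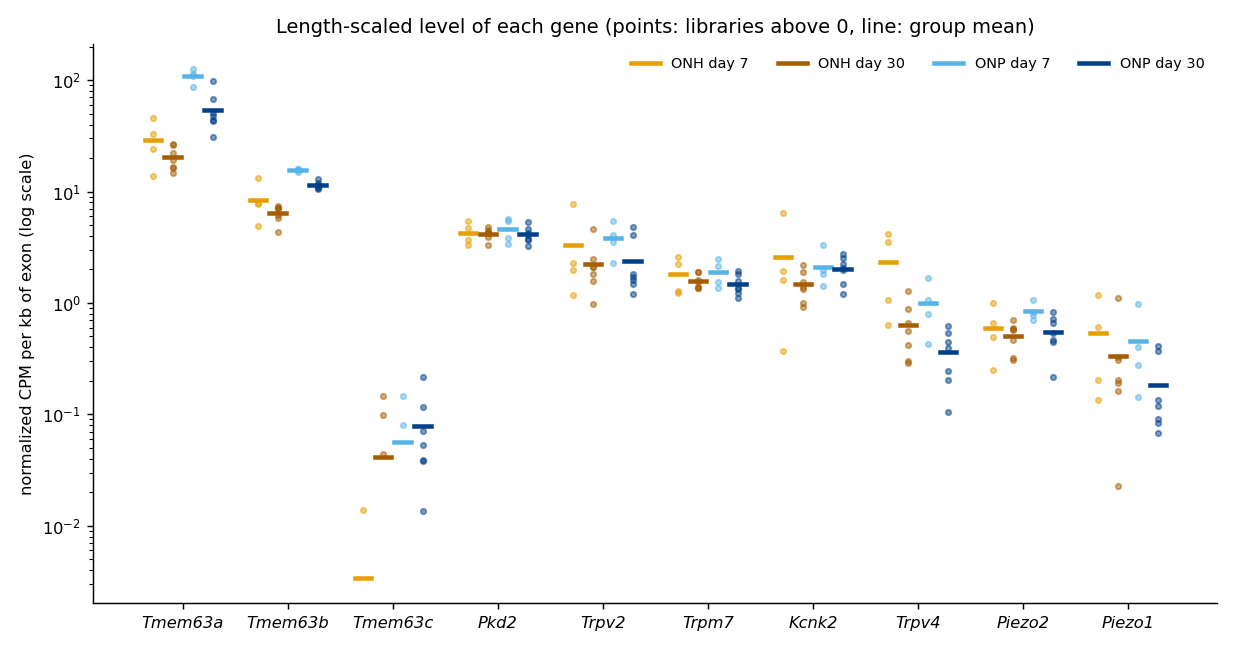
Normalized CPM per kilobase of exon on a log scale for the 10 genes, with a point for each library above 0 and a line at the group mean; ONH libraries are orange (day 7) and brown (day 30), ONP libraries light and dark blue. Tmem63a is highest and Tmem63c lowest in all 4 groups, and Tmem63c libraries at 0 have no point on this axis.

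The comparison of ONH with ONP asks which channel transcripts differ between the regions after microbead injection. At day 30, 2 of the 9 members tested by edgeR's quasi-likelihood test were called at an adjusted p under 0.05, Tmem63a and Tmem63b, both lower in the ONH. Among all 15133 genes tested, 41.8% were called in this comparison and 20.0% were called lower, so the members' shares were below or close to those of genes at large. At day 7, 1 of 9 was called, Tmem63a, again lower in the ONH, against 13.2% of all 14752 genes called and 6.81% called lower.

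Tmem63a stood at 65.4 CPM in the lowest ONH library at day 30, 86.6 in the median and 121 in the highest. The ONP libraries of that day ranged from 140 through a median of 215 to 440 CPM. All 7 ONH libraries were thus below all 7 ONP libraries. The ONH level was 2.68-fold lower (log2 fold change -1.42, SE 0.23, edgeR adjusted p = 0.000168). At day 7 the ONH libraries 1, 3, 5 and 6 held 147, 62.2, 107 and 206 CPM, and the ONP libraries 1, 2, 5 and 6 held 389, 494, 508 and 561 CPM. The groups again did not overlap, and the ONH was 3.69-fold lower (log2 fold change -1.88, SE 0.31, edgeR adjusted p = 0.00315). Across all genes, the groups did not overlap for 16.4% at day 30 and 21.7% at day 7.

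Tmem63b, the close relative of Tmem63a, followed the same order with a smaller difference. At day 30 the ONH libraries ran from 22.1 through 35.9 to 37.8 CPM and the ONP libraries from 53.9 through 57.8 to 66.8 CPM, with no overlap. The ONH was 1.77-fold lower (log2 fold change -0.83, SE 0.12, edgeR adjusted p = 8.16e-05). At day 7 ONH libraries 1, 3, 5 and 6 held 40.3, 39.1, 24.8 and 67.0 CPM, all below the ONP libraries 1, 2, 5 and 6 at 79.3, 81.0, 76.0 and 81.0 CPM. That difference, -0.87 on the log2 scale (SE 0.26), just missed the threshold (edgeR adjusted p = 0.0519). The call depended on the libraries, the tool and the filter. Leaving out single libraries brought a call only for ONH day 7 library 6, the library highest in photoreceptor and neuron markers. Without it the log2 fold change was -1.19 and the edgeR adjusted p 0.00491. With all 8 libraries DESeq2 called the gene at an adjusted p of 0.0191. Limma-voom called it as well, as did edgeR with no filter, with at least 10 counts in every library, and in a single fit over all 4 groups. Exons of Tmem63b overlap those of Mrpl14 on the other strand over 106 bases and of Gm16172 over 288 bases, and strand use in counting is not stated.

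**Figure D2:**
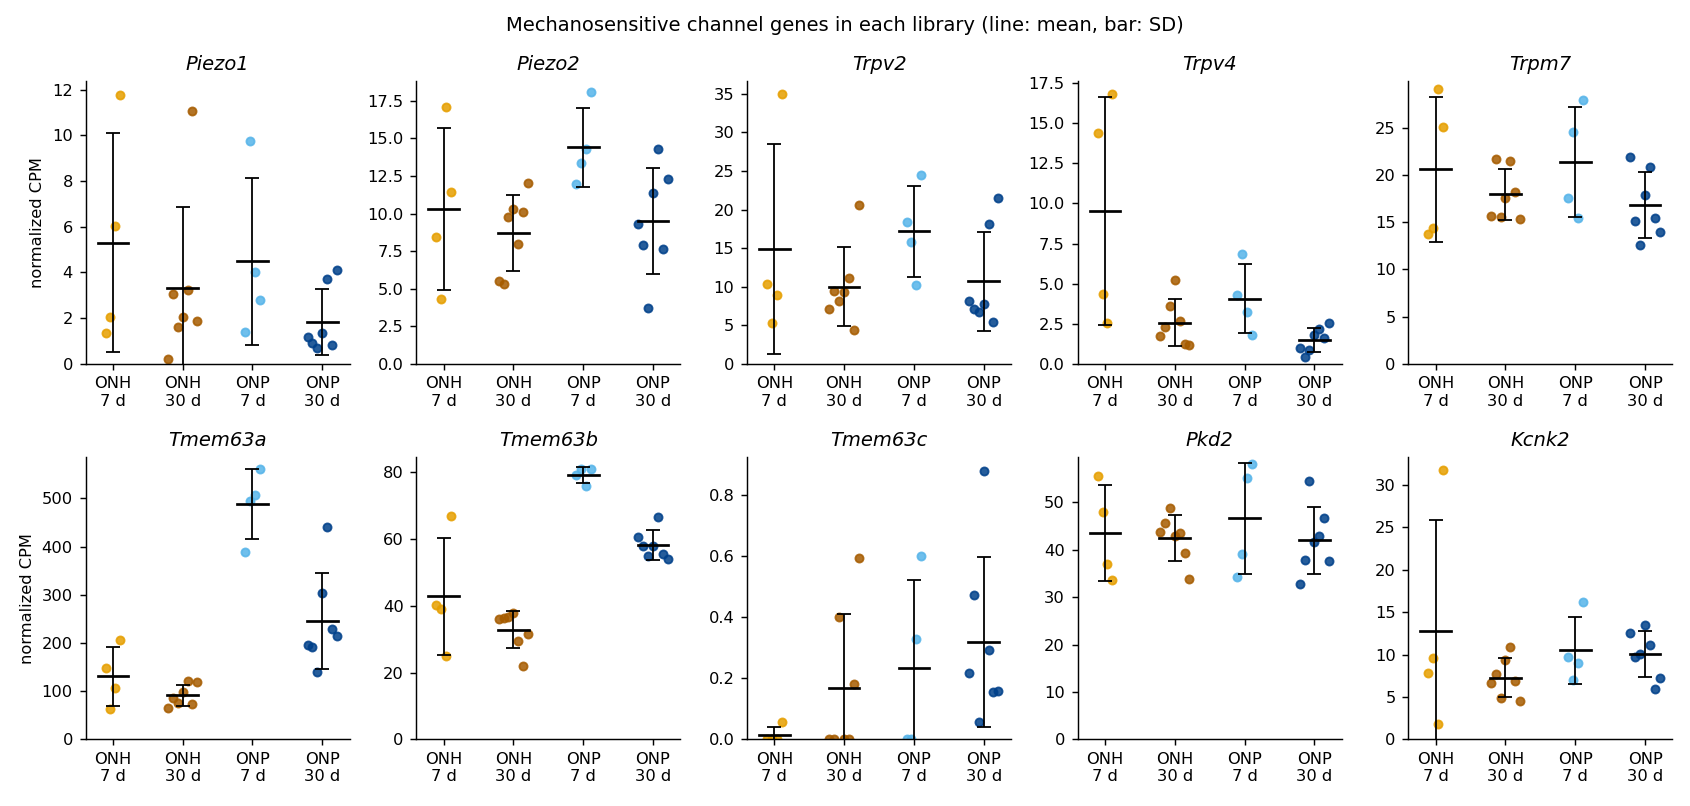
TMM-normalized CPM of each gene in every library, 1 panel a gene with its own linear axis from 0; the line is the group mean and the bar its SD. Tmem63a and Tmem63b are the genes whose ONH points (orange and brown) all lie below the ONP points (blue) of the same day, and Trpv4 has its 2 highest points in the ONH at day 7.

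The regional order of Tmem63a moved with oligodendrocyte markers. In the ONH at day 30, 4 of the 5 markers were called lower than in the ONP, and at day 7 all 5 were. Their sum ranged from 14600 to 27462 CPM in the ONH and from 57434 to 69537 CPM in the ONP at day 7, and from 9898 to 30522 and from 16854 to 57521 CPM at day 30. Set against that sum, Tmem63a gave median ratios of 6.94 CPM per 1000 marker CPM in the ONH at day 7, 5.19 in the ONH at day 30, 8.32 in the ONP at day 7 and 6.77 in the ONP at day 30. The Tmem63a ratios overlapped between the regions on both days. They ran from 4.26 to 8.72 in the ONH and 6.77 to 8.62 in the ONP at day 7. At day 30 they ran from 3.73 to 7.53 and from 5.13 to 8.49. The corresponding medians for Tmem63b were 2.41, 1.57, 1.33 and 1.54. Its ratios ran from 1.48 to 2.68 in the ONH and 1.17 to 1.41 in the ONP at day 7. At day 30 they overlapped, at 1.04 to 3.70 and 1.16 to 3.27. Tmem63b stayed at 53.9 to 66.8 CPM in the ONP at day 30 over the whole range of the marker sum. The Tmem63b ratio therefore largely follows the sum it is divided by. In the ONH at day 30 the Tmem63a ratio was also lower where the sum was higher. It was 5.19 to 7.53 at sums of 9898 to 14092 CPM and 3.73 to 4.76 at 25365 to 30522 CPM. Neither ratio shows where the regional difference arises. Whether the difference of either gene arises in tagged astrocytes or in oligodendrocyte RNA was not tested.

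**Figure D3:**
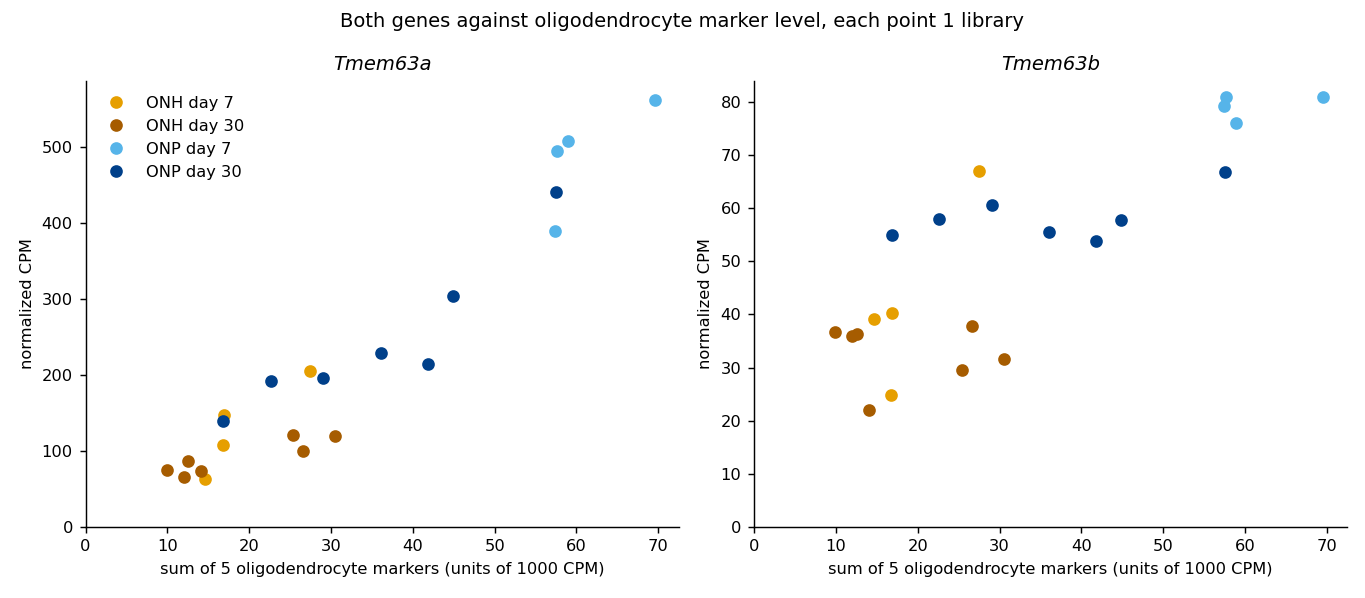
TMM-normalized CPM of Tmem63a (left) and Tmem63b (right) against the summed CPM of 5 oligodendrocyte markers in units of 1000 CPM, each point 1 of 22 libraries and each color a group. Over both regions together Tmem63a runs from 62.2 to 561 CPM and tends to be higher where the marker sum is higher. Within the ONH this is loose, with 147 CPM at a sum of 16885 CPM (day 7 library 1) and 99.4 CPM at 26601 CPM (day 30 replicate 4). Tmem63b in the ONP at day 30 stays between 53.9 and 66.8 CPM as the sum goes from 16854 to 57521 CPM.

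The genes whose levels followed Tmem63a most closely were Acsl1 and Gpr37. They were found among 16747 other genes by the root mean square difference in log2 CPM over the 22 libraries, after centring each gene on its mean. The difference was 0.28 for both, against 0.99 for the deviation of Tmem63a from its own mean. Gpr37 encodes a receptor of myelinating oligodendrocytes and Acsl1 an acyl-CoA synthetase. The 22 libraries span both regions and both days, so any gene with similar region and day differences scores as alike.

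The other members did not pass the same test between the regions, and how far each could have differed depends on its spread. Pkd2 was the most tightly bounded. Its level was 42.5 ± 4.81 CPM in the ONH and 42.0 ± 7.06 in the ONP at day 30 (SD, n = 7 each), a log2 fold change of 0.02 with an interval of 2 SE from -0.22 to 0.25. At day 7 its ONH libraries held 55.6, 47.9, 37.0 and 33.7 CPM and its ONP libraries 34.2, 39.1, 55.1 and 58.1 CPM, and the interval was -0.56 to 0.40. The ranges overlapped on both days.

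Trpm7 was nearly as even, at 17.9 ± 2.72 CPM in the ONH and 16.8 ± 3.51 in the ONP at day 30, with an interval of the log2 fold change from -0.21 to 0.39. At day 7 ONH libraries held 13.8, 14.3, 29.1 and 25.1 CPM and ONP libraries 17.6, 24.5, 15.5 and 27.9 CPM, which overlap (interval -0.66 to 0.58).

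Kcnk2, the potassium channel, stood at 4.58 to 10.9 CPM (median 6.92) in the ONH and 6.0 to 13.5 CPM (median 10.1) in the ONP at day 30. The log2 fold change was -0.47 (SE 0.23, edgeR adjusted p = 0.11), and it passed the threshold, at -0.59 and an edgeR adjusted p of 0.0486, when ONH day 30 replicate 5 was left out. At day 7 ONH libraries 1, 3, 5 and 6 held 7.86, 9.60, 1.82 and 31.7 CPM, and ONP libraries 9.68, 7.06, 8.99 and 16.2 CPM. The highest and the lowest Kcnk2 levels of the whole series were thus both in the ONH at day 7. The antisense gene A430027H14Rik overlaps 12.2% of the Kcnk2 exons.

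Trpv4 tended to the opposite side but did not pass. At day 30 it ran from 1.19 through 2.29 to 5.21 CPM in the ONH and from 0.429 through 1.6 to 2.52 CPM in the ONP, with 3 ONH libraries above every ONP library (log2 fold change 0.79, SE 0.42, edgeR adjusted p = 0.149). At day 7 the ONH libraries held 14.4, 4.34, 2.56 and 16.8 CPM against 4.29, 6.87, 3.24 and 1.76 CPM in the ONP. The log2 fold change was 1.26 (SE 0.63, edgeR adjusted p = 0.218) with an interval from -0.01 to 2.52, so that a difference of several fold was not detectable at this spread.

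Trpv2 had a log2 fold change of -0.09 at day 30 (interval -0.81 to 0.64) and -0.20 at day 7 (interval -1.26 to 0.87). Its level followed single libraries. ONH day 30 replicate 7, the ONH library with the highest microglial and macrophage marker sum (2023 CPM), had 20.6 CPM of Trpv2, while the other 6 ONH libraries of that day had at most 11.2 CPM. In the ONP at day 30 the libraries with the highest such sums, replicates 5 and 7 at 2643 and 3013 CPM, had 18.2 and 21.5 CPM of Trpv2, and the other 5 had at most 8.18 CPM. The highest Trpv2 level of the series, 35.0 CPM, was in ONH day 7 library 6. Its microglial and macrophage sum of 1322 CPM was the highest of that group but below the sums just given. At day 30, Trpv2 per 1000 marker CPM ran from 10.2 to 53.3 in the ONH and from 6.87 to 27.6 in the ONP. TRPV2 is known from macrophages, and the part of such cells in these values was not tested.

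Piezo2 held 5.31 to 12 CPM in the ONH and 3.68 to 14.3 CPM in the ONP at day 30 (log2 fold change -0.13, interval -0.66 to 0.41). At day 7 ONH libraries held 8.46, 4.28, 17.1 and 11.4 CPM and ONP libraries 12, 13.4, 14.3 and 18.1 CPM, with 3 of the 4 ONH libraries below every ONP library (log2 fold change -0.47, interval -1.24 to 0.30). Piezo1 had the widest intervals of the 9 tested. It rested on 5 to 245 counts per library, and its intervals ran from -0.41 to 2.09 at day 30 and from -1.25 to 1.75 at day 7. In addition, 24.6% of the Piezo1 exon length overlaps Ctu2 on the other strand, which drew 11693 counts over all libraries against 1548 for Piezo1. Reads that lie wholly within the overlap cannot be told apart by position without strand.

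Tmem63c did not pass the filter on low counts in any comparison of 2 groups. It had at most 19 counts in any library and was at 0 in 3 of 4 ONH libraries at day 7, 4 of 7 at day 30 and 2 of 4 ONP libraries at day 7, while all 7 ONP libraries at day 30 had at least 1 count. An exact two-sided permutation test of log2(CPM + 0.5) gave p = 0.234 for ONH against ONP at day 30 and p = 0.429 at day 7, where the smallest p possible was 0.0286.

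**Figure D4:**
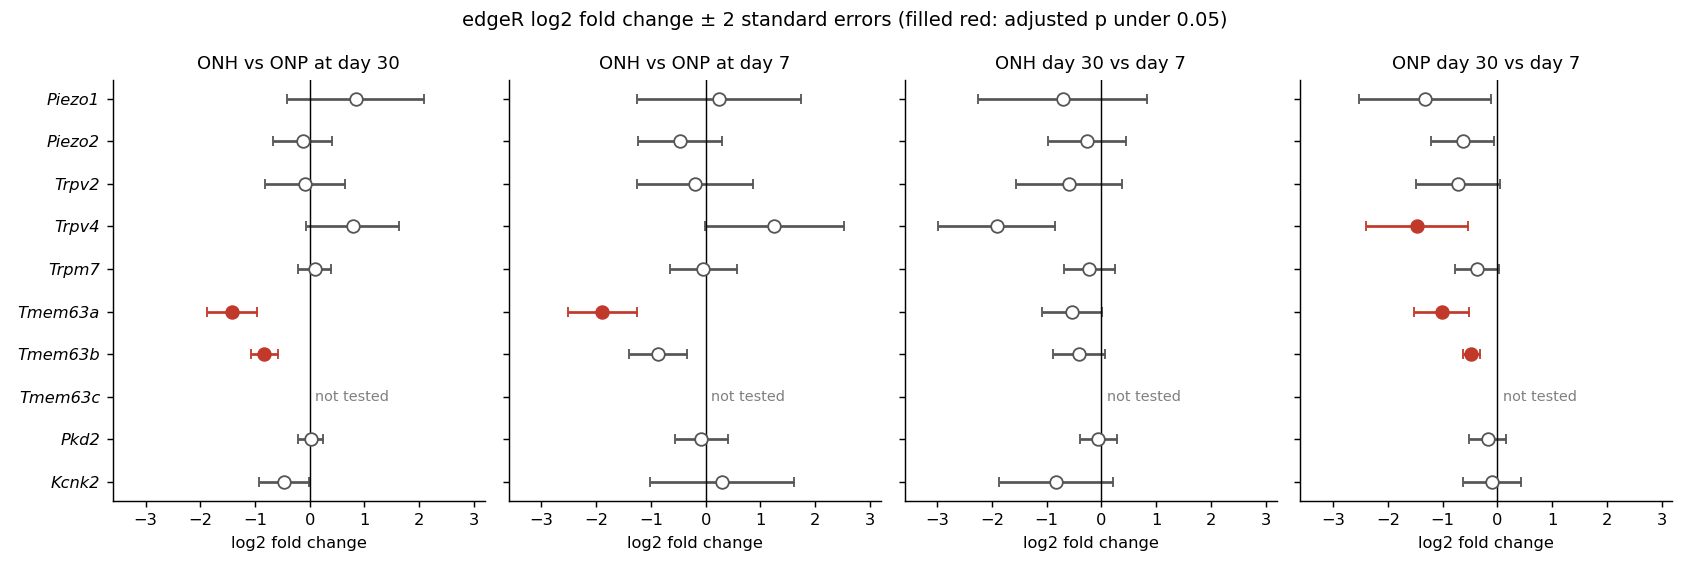
edgeR log2 fold change of each gene with bars of 2 standard errors in the 4 comparisons of 2 groups; positive values are higher in the first-named group, and filled red points passed an adjusted p of 0.05. Tmem63a and Tmem63b at day 30, Tmem63a at day 7, and Trpv4, Tmem63a and Tmem63b in the ONP over time are filled, and Tmem63c was not tested.

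The comparison of day 30 with day 7 within each region asks how the transcripts differ between an early and a later time after injection. In the ONP, 3 of 9 members were called, all lower at day 30: Tmem63a, Tmem63b and Trpv4. Of all 15491 genes tested, 17.0% were called and 9.21% were called lower. All 9 tested members had a log2 fold change below 0, with a median of -0.63, where 50.7% of all genes were below 0 and their median was -0.01.

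Tmem63b had the most uniform decrease. The 4 ONP libraries at day 7 lay between 76.0 and 81.0 CPM and the 7 at day 30 between 53.9 and 66.8 CPM, without overlap, which 12% of all genes showed. It fell by 0.47 on the log2 scale (SE 0.08, edgeR adjusted p = 0.00282). Tmem63a fell by 1.02 (SE 0.25, edgeR adjusted p = 0.0176), from 488 ± 72.2 to 245 ± 99.4 CPM. Of the 7 libraries at day 30, 6 were below every day 7 library, and replicate 5 at 440 CPM was not. Oligodendrocyte markers fell in the same comparison for 4 of 5 genes, and replicate 5 had the highest marker sum of that group, 57521 CPM. Without ONP day 7 library 6, the Tmem63a decrease was 0.92 and no longer passed (edgeR adjusted p = 0.0607). In a single fit over all 4 groups Tmem63a was the only member called, and Tmem63b had an adjusted p of 0.127.

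Trpv4 fell from 4.29, 6.87, 3.24 and 1.76 CPM in ONP libraries 1, 2, 5 and 6 at day 7 to 0.429 to 2.52 CPM (median 1.6) at day 30. The decrease of 1.47 on the log2 scale (SE 0.47, edgeR adjusted p = 0.0488) lay at the edge of the threshold. Leaving out a single library ended the call in 8 of 11 cases, with edgeR adjusted p-values from 0.0613 to 0.169. TRPV4 is also known from endothelium, and 2 of 5 endothelial markers fell, as did 2 of 3 mural markers. The ONP endothelial sums ran from 61.3 to 99.6 CPM at day 7 and from 6.92 to 62.1 CPM at day 30. Of the 4 markers of surface epithelium 1 fell, with sums of 3.25 to 43.0 CPM at day 7 and 0.0518 to 12.6 CPM at day 30. The part of vessel or epithelial cells was not tested.

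Piezo1 and Piezo2 in the ONP each reached an unadjusted edgeR p of 0.047 (32.6% of all genes were under 0.05) and neither passed after adjustment (adjusted p = 0.147 for both). Piezo1 held 1.41, 9.74, 4.02 and 2.77 CPM at day 7 and 0.670 to 4.12 CPM (median 1.18) at day 30, and 5 of the 7 later libraries were below every earlier one. Piezo2 held 12 to 18.1 CPM at day 7 and 3.68 to 14.3 CPM (median 9.27) at day 30. Trpv2 was at -0.72 (SE 0.39), Trpm7 at -0.38 (SE 0.20), Pkd2 at -0.18 (SE 0.17) and Kcnk2 at -0.09 (SE 0.26) on the log2 scale, none past the threshold.

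These ONP counts depended on which libraries entered. When 5 libraries were left out, the 3 with the highest microglial and the 2 with the highest photoreceptor and neuron marker sums, 6 of 9 members were called lower at day 30 by edgeR, with Piezo1 (-2.17), Piezo2 (-0.85) and Trpv2 (-1.28) added. That choice was made after the values were seen, and it widened the gap in microglial markers between the days: the 5 ONP libraries kept at day 30 summed to 227 to 847 CPM and the 4 at day 7 to 1187 to 1957 CPM. It also removed ONP day 30 replicates 5 and 7, the highest of their group for each added gene. They held 3.70 and 4.12 CPM of Piezo1, 14.3 and 12.3 of Piezo2, and 18.2 and 21.5 of Trpv2. Leaving them out lowers the day 30 levels by itself, so the added calls are no separate support for a fall. With all libraries, 0 of 7 microglial markers were called in the ONP.

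In the ONH, edgeR called 0 of 9 members between day 30 and day 7, and it called 0 of all 15668 genes (0.0%). At an unadjusted p under 0.05 there were 2179 genes (13.9%) and 1 member, Trpv4. DESeq2 called 446 genes, Trpv4 among them. Trpv4 went from 14.4, 4.34, 2.56 and 16.8 CPM at day 7 to 1.19 to 5.21 CPM at day 30, a log2 fold change of -1.92 (SE 0.54, edgeR adjusted p = 0.189, DESeq2 adjusted p = 0.0266). Day 7 libraries 1 and 6 were above every day 30 library, and libraries 3 and 5 were within the day 30 range. All 4 fibroblast and meningeal markers had an unadjusted p under 0.05 in this comparison and none was called, with sums of 615 to 1507 CPM at day 7 and 369 to 791 CPM at day 30. Other lists moved the same way without a call. An unadjusted p under 0.05 was reached by 3 of 4 mural markers, 2 of 5 endothelial markers and 3 of 4 markers of surface epithelium. Mural sums were 63.7 to 361 CPM at day 7 and 38.6 to 146 CPM at day 30. Endothelial sums had medians of 139 and 42.4 CPM at these days, and their ranges overlapped. Epithelial sums were 2.69 to 97.2 and 0 to 10.2 CPM. The highest epithelial sum was in day 7 library 1, which was high in Trpv4, and the lowest of the day 7 ONH libraries was in library 6, which was higher still in Trpv4. Day 7 library 5 had the highest endothelial sum of the series, 212 CPM, and a mural sum of 307 CPM. Its Trpv4 level, 2.56 CPM, was nevertheless the lowest of its group. Library 6, the highest in Trpv4, had endothelial and mural sums of 188 and 361 CPM. The part of these cells in the Trpv4 values was not tested.

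The genes most like Trpv4 over the 22 libraries were Smtn, Col6a2 and Rhbdf1, with root mean square differences of 0.72, 0.75 and 0.78 in centred log2 CPM against 1.17 for Trpv4 itself. Smtn encodes smoothelin, a protein of contractile smooth muscle, Col6a2 a chain of collagen VI and Rhbdf1 an inactive rhomboid protein. These differences were larger than those of the Tmem63a neighbours. Trpv4 had 10 to 300 counts per library and Tmem63a 1456 to 14981, and low counts widen such differences, so the degrees of likeness cannot be compared.

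All 9 members also had a negative log2 fold change in the ONH, with a median of -0.54 where 51.6% of all genes were below 0. The signs rested partly on ONH day 7 library 6, which held the highest levels of Trpv2 (35.0 CPM), Kcnk2 (31.7 CPM), Piezo1 (11.8 CPM) and Trpv4 (16.8 CPM) in the series. Without it, 6 of 9 were negative and the median was -0.11. Tmem63a was at -0.54 (SE 0.27), Tmem63b at -0.41 (SE 0.24), Kcnk2 at -0.84 (SE 0.52), Piezo1 at -0.71 (SE 0.77), Trpv2 at -0.59 (SE 0.48), Piezo2 at -0.27 (SE 0.35), Trpm7 at -0.22 (SE 0.23) and Pkd2 at -0.06 (SE 0.17). For Tmem63c the exact two-sided permutation test gave p = 0.342 in the ONH and p = 0.555 in the ONP.

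Whether the change over time differed between the regions was tested as the interaction of region and day over the 22 libraries (ONP change minus ONH change). edgeR called 0 of 10 members, against 0.543% of all 16748 genes, and no member had an unadjusted p under 0.05, which 12.6% of genes had. DESeq2 called 0 members too. The lowest adjusted p by edgeR was 0.581, for Tmem63c, whose counts are too few for a fold. For Tmem63a the difference of changes was -0.48 (SE 0.40, interval -1.27 to 0.31), for Tmem63b -0.06 (interval -0.57 to 0.44) and for Trpv4 0.46 (interval -1.06 to 1.98). The falls seen in the ONP are therefore not shown to be particular to that region.

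Transcripts of proteins listed as possible partners of these channels were tested as a list of 8, of which 6 passed the filter. Whether they act with the channels in these cells was not tested. At day 30, 3 were higher and 3 lower in the ONH, where 41.8% of all genes were called, and at day 7, 1 was higher and 2 lower, where 13.2% were. The median log2 fold change of the 6 was -0.05 at day 30 and -0.37 at day 7, against -0.01 and 0.07 for all genes. Mdfic, a subunit that binds PIEZO channels, was higher by 1.44 on the log2 scale (SE 0.27), at 20.3 ± 5.16 CPM in the ONH and 7.48 ± 4.08 CPM in the ONP, and by 1.71 (SE 0.35) at day 7. Aqp4, the astrocyte water channel that has been linked to TRPV4, was lower by 1.43 (SE 0.25) and 1.65 (SE 0.22) at the respective days, with 447 ± 116 against 1204 ± 455 CPM at day 30. Cav1 (caveolin-1) was higher in the ONH at day 30 by 0.49 (SE 0.14), and Stom (stomatin) and Pkd1 (polycystin-1) were lower by 0.93 (SE 0.19) and 0.58 (SE 0.22).

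Kcnj10, the inward rectifier Kir4.1, was the 1 listed partner called in the interaction (-1.52, SE 0.28, edgeR adjusted p = 0.0186). Its means were 154 ± 43.7 CPM in the ONH at day 7, 267 ± 70.0 in the ONH at day 30, 268 ± 33.5 in the ONP at day 7 and 163 ± 34.8 in the ONP at day 30. It was lower in the ONH at day 7 by 0.78 and higher at day 30 by 0.70 on the log2 scale. The interaction call was kept under all 9 other alternatives run on it, DESeq2 and voom among them (adjusted p from 0.00032 to 0.0334) and was lost on leaving out ONH day 7 library 1, ONP day 7 library 1 or ONP day 7 library 2 (edgeR adjusted p = 0.0524, 0.0582 and 0.0619). In the ONP it fell by 0.75 (SE 0.15) and Cav1 by 0.76 (SE 0.09), which made 2 of 6 partners called there against 17.0% of all genes.

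Of 23 other genes reported to form or modulate mechanosensitive channels, 16 were tested between the regions at each day. At day 30, 3 were higher and 4 lower in the ONH, and at day 7, 2 were higher and 2 lower. The 7 of 16 called at day 30 are close to the 41.8% of all genes, and the 4 of 16 at day 7 compare with 13.2%. Trpm3, a TRP channel activated by heat and steroids, was higher by 3.32 (SE 0.27) at day 30 and 3.10 (SE 0.46) at day 7, with 68.5 ± 17.8 against 6.83 ± 2.95 CPM at day 30. The 5 pigment cell markers were also higher in the ONH on both days, and TRPM3 is known from pigment epithelium and ciliary body; that share was not tested. The acid-sensing channels Asic1 and Asic2 were lower by 1.42 (SE 0.23) and 3.10 (SE 0.36) at day 30. Asic1 was also lower at day 7, by 1.82 (SE 0.44), as was Tmc7, by 1.70 (SE 0.29). Over time in the ONP, 4 of 16 fell (Pkd2l1, Kcnma1, Tmc7 and Tmem87a, by 0.82 to 1.86), where 9.21% of all genes fell. In the ONH edgeR called 0 of 17, and it called no gene at all there. None of the 17 had an unadjusted p under 0.05, which 13.9% of all genes had.

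**Figure D5:**
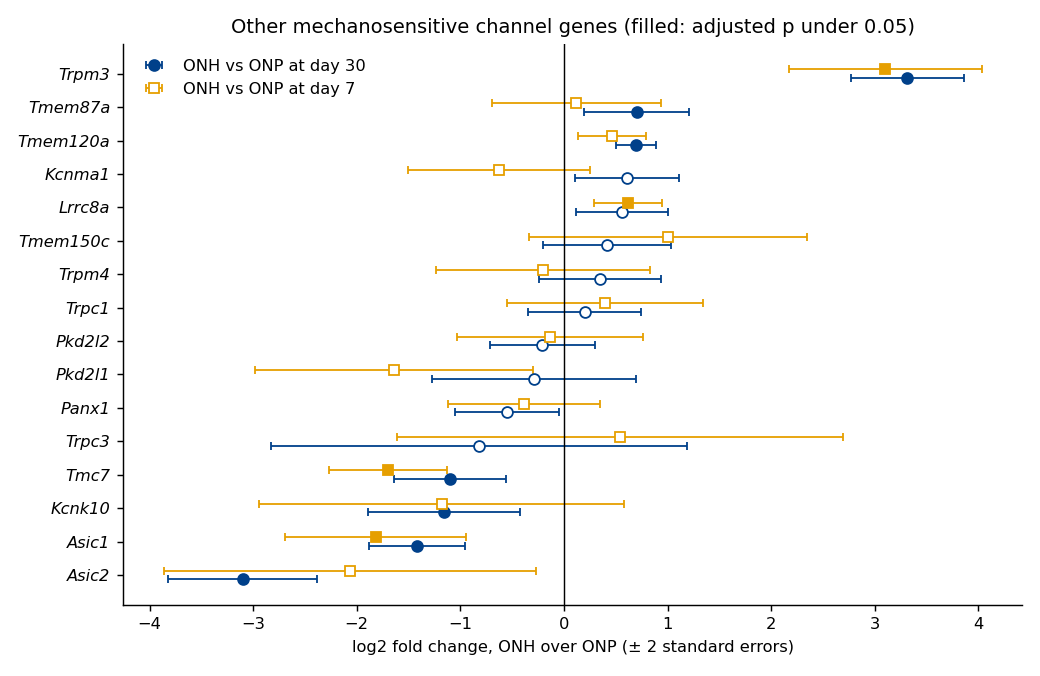
edgeR log2 fold change of ONH over ONP with bars of 2 standard errors for 16 other channel genes, circles for day 30 and squares for day 7, filled where the adjusted p was under 0.05. Trpm3 is more than 3 log2 units higher in the ONH on both days, and Asic1, Tmc7 and, at day 30, Asic2 are lower.

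Of 33 genes that carry, store or read the calcium these channels admit, 30 were tested between the regions, of which 9 were higher and 8 lower in the ONH at day 30 and 3 higher and 2 lower at day 7. These are 17 of 30 against 41.8% of all genes at day 30, and 5 of 30, near the 13.2% of all genes, at day 7. The store channel genes Itpr3 and Itpr2 were higher at day 30 by 1.41 (SE 0.39) and 0.93 (SE 0.19), and Itpr1 at day 7 by 1.22 (SE 0.31). Rcan1, a calcineurin inhibitor that is itself a calcineurin target, was higher by 0.80 (SE 0.14) and 1.58 (SE 0.32), while Rcan2 was lower by 0.91 (SE 0.12) and 0.96 (SE 0.20) and the transcription factor gene Nfatc2 by 0.98 (SE 0.19) and 1.18 (SE 0.32). In the ONP over time, Itpr2 fell by 0.91 (SE 0.12), Atp2a2 (the SERCA2 pump) by 0.66 (SE 0.17), Stim1 by 0.41 (SE 0.13) and Atp2b1 by 0.37 (SE 0.09), and Micu3 rose by 0.75 (SE 0.20). The other 26 of 31 were not called there, where 17.0% of all genes were. In the ONH edgeR called none of the 30, and it called no gene at all there. An unadjusted p under 0.05 was reached by 5 of the 30, near the 13.9% of all genes.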

How the data were processed

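RNA was taken from HA-tagged ribosomes of ONH and ONP pools and made into libraries with oligo-dT priming (Smart-Seq HT). Per the labels, reads were processed with STAR 2.6.1d and Salmon 0.14.2 against mm10, and Ensembl 94 annotation is named in the methods. The deposited gene table holds estimated counts that the authors gave as whole numbers. A second deposited table of log2 scale variance-stabilized values, made with DESeq2 1.34.0, was not used. The strand setting is not given in the sources used here.

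Genes passing filterByExpr were fitted with TMM factors in edgeR 4.0.16 (quasi-likelihood test, R 4.3.3), with each 2-group comparison fitted alone and the interaction over 22 libraries. P-values were adjusted by Benjamini-Hochberg over all genes tested, at 0.05. The SE is the log2 fold change divided by the root of F, and intervals are 2 SE to each side. A member below the filter had an exact permutation test on log2(CPM + 0.5). CPM per kb used merged exons of GENCODE on GRCm38. Upstream sequences are from RefSeq, GRCm38.p6, where 9 of the 10 genes matched by symbol and the 2 printed were those called between regions. Scripts were tested on simulated data. Replicates within a group are pools of different mice, ONH and ONP tissue came from the same mice, and the tests treat the libraries as independent. All pairs within a group differed beyond sampling noise. Levels and floors cover counting error only, since reads carried no molecular identifiers.

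All 10 members were named in every comparison. From the other lists, at most 6 called genes with the largest log2 fold change were named per comparison, and for members changed by over 1 on the log2 scale, the 3 genes most alike. Some values that these rules cover are not reported here. The members and lists were chosen with earlier results of these data known. Alternatives were DESeq2 1.42.0, limma 3.58.1 voom with quality weights, RLE and library-size scaling, no filter, at least 10 counts in every library, mitochondrially encoded genes left out, a single fit of 4 groups, a replicate block, and leaving out each library. Day 7 columns carry numbers that differ from the labels and were not paired.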

Additional observations from a re-analysis of the deposited data

Results flagged for a closer look

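In 3 of the 40 sets of libraries (10 genes in 4 groups), 1 library lay far from the rest of its group by Dixon's test, which chance does in about 1 set of 20. Piezo1 in ONH day 30 replicate 6 was 11.1 CPM, where the next highest of the group was 3.24 CPM. Trpv2 in ONH day 30 replicate 7 was 20.6 CPM, with the next at 11.2 CPM, and that library also had the highest microglial and macrophage marker sum of the ONH libraries, 2023 CPM. Tmem63c in ONH day 7 library 6 was 0.0561 CPM, which is 1 count, while the other 3 libraries of the group had 0. With the rest at 0, any count is flagged, so the rate of 1 in 20 does not apply to this set.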

How the results depend on the processing

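Tmem63a and Tmem63b stayed called between the regions at day 30 under all 10 alternatives and without each library, and leaving out single libraries gave 2 to 3 members. At day 7, 2 members (Tmem63a and Tmem63b) were called instead of 1 under DESeq2, voom, no filter, at least 10 counts in every library, the single fit and the fit without 5 libraries; leaving out single libraries gave 1 to 2. In the ONH over time DESeq2 called 1. In the ONP over time the single fit called 1 and the fit without 5 libraries 6; leaving out single libraries gave 2 to 3. Trpv4 there lost its call under RLE (adjusted p = 0.0524), library size (0.0592), no filter (0.0771) and the single fit (0.0969), and over all alternatives its adjusted p was 0.0181 to 0.0969. The causes were not tested.

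Signs turned only for members that were not called. With voom, Trpv2 at day 30 was 0.24, Piezo1 at day 7 -0.12, Piezo2 in the ONH 0.019 and Tmem63c in the interaction 0.11. With no filter, Pkd2 at day 30 was -0.018. With library size only, Trpm7 and Pkd2 at day 7 were 0.082 and 0.040, Kcnk2 in the ONP 0.028, and Trpv2, Trpm7, Tmem63b and Pkd2 in the interaction 0.037, 0.0059, 0.085 and 0.038. Without 5 libraries, Trpv2 at day 30 was 0.17, Piezo1, Pkd2 and Kcnk2 at day 7 -0.51, 0.0078 and -0.70, Piezo1 and Kcnk2 in the ONH 0.26 and 0.16, and Trpv4 and Kcnk2 in the interaction -0.20 and -0.21. Leaving out single libraries gave Trpv2 -0.40 to 0.17 and Pkd2 -0.035 to 0.088 at day 30, Piezo1 -0.51 to 0.96, Trpv2 -1.07 to 0.080, Trpm7 -0.27 to 0.11, Pkd2 -0.23 to 0.041 and Kcnk2 -0.70 to 0.64 at day 7, Piezo1 -1.42 to 0.046, Piezo2 -0.53 to 0.087, Trpv2 -0.89 to 0.27, Pkd2 -0.17 to 0.079 and Kcnk2 -1.20 to 0.15 in the ONH, and Kcnk2 -0.24 to 0.22 in the ONP. In the interaction it gave Piezo1 -1.34 to 0.14, Trpv2 -0.97 to 0.17, Trpm7 -0.36 to 0.056, Tmem63b -0.34 to 0.13, Pkd2 -0.23 to 0.064 and Kcnk2 -0.22 to 1.11.

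Scaling by library size alone moved the median log2 fold change of all genes by 0.11 at day 7, 0.11 in the ONP and 0.15 in the interaction, and the share of calls that were higher went from 48.2% to 62.4%, 45.9% to 66.7% and 27.5% to 53.6%. DESeq2 moved the share in the interaction to 42.8% and voom to 12.7%. All genes called numbered 1940 by edgeR and 3211 by DESeq2 at day 7 (3785 in the single fit), 0 and 446 in the ONH (292 in the single fit), 2638 and 1189 (single fit) in the ONP, and 91 and 409 in the interaction (55 by voom with quality weights, 50 with no filter, 161 by voom with the block and no such weights). Leaving out single libraries moved them as well. At day 7 they numbered 1102 to 2379, with 1147, 1173 and 1102 without ONP libraries 2, 5 and 6. In the ONH they numbered 0 to 167, the highest without day 7 library 5, in the ONP 1439 (without day 7 library 6) to 3214, and in the interaction 22 (without ONP day 7 library 1, 2 or 6) to 318 (without ONH day 7 library 5), where 14 of 22 omissions moved the count by over 1.5 times. The shares of all genes called, 13.2%, 0.0%, 17.0% and 0.543%, were thus 7.26 to 15.8%, 0.0 to 1.04%, 9.12 to 20.9% and 0.127 to 1.86%. Same-numbered ONH and ONP replicates at day 30 had correlations of 0.0767 to 0.471 in their deviations from the group means, all positive. They were 0.0767 and 0.0835 for numbers 1 and 6, and 3 of 7 correlated best with their own number. Both regions came from the same mice, but no source used here ties the numbers to pools, so the numbers were not taken as pairs, and pairing remains possible. With the replicate block, 2 members were called at day 30 and 0 in the interaction, as without it. Depth limits Tmem63c, with at most 19 counts in a library, and the day 7 groups have 4 libraries each.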
